A study of Mus musculus with 28 samples.

Results

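Complement components and regulators were followed with age in the mouse forebrain neurogenic zone. They were taken as 8 named genes: C1qa, C1qb and C1qc, C4b, C3, the receptors C3ar1 and C5ar1, and the inhibitor Serping1. All 8 had values in the single cells, among 37974 genes listed, and 7 had values in the tissue, among 36358 genes listed; C5ar1 was not analysed here in the tissue. The tissue was the ventricular wall with the SEZ/SVZ (subependyma/subventricular zone, the layer beside the lateral ventricle where new neurons arise) of C57BL/6 mice aged 3 weeks or 18 months, with 3 samples per age. The 22 cells were sorted by size and complexity from the same region of mice aged 1 month or 24 months, picked by hand, and kept when qPCR found a marker transcript. They comprised 3 and 3 Prom1+ cells, 2 and 5 Gfap+ cells, and 5 and 4 Dlx2+/Dcx+ cells at 1 month and 24 months. No treatment or mutation was given for any group, and no cell is tied to a named animal.

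Complement is a cascade of secreted proteins that tags surfaces for removal. C1q, built from A, B and C chains, binds a target and starts the classical pathway, which cleaves C4 and then C3, and fragments of C3 and C5 signal through G protein-coupled receptors. In the brain, microglia are the main known source of C1q, astrocytes and oligodendrocyte lineage cells can make C4 and C3, and C1q and C3 take part in the removal of synapses during development.

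In the tissue C3 and C4b were higher at 18 months than at 3 weeks, and the other 5 tested genes were not called in either direction. No age between these was sampled in the tissue, so maturation after 3 weeks and aging cannot be told apart. C3 went from 0.321 ± 0.00346 to 10.1 ± 2.42 FPKM and C4b from 9.79 ± 1.46 to 44.2 ± 1.37 FPKM (mean ± SD, n = 3 per age), where FPKM is a fragment count scaled to transcript length and to the mapped fragments of the sample. A gene was called where limma gave p under 0.05 before adjustment and the mean log2 values of the ages lay more than 1 apart, the limits in the methods of the study. By these limits 2 of the 7 genes were called higher at 18 months and 0 lower, against 1.83% of the 12287 tested genes called higher and 2.07% called lower, 3.90% together. The same 2 were called with adjusted p, as were 2.27% of all tested genes. At p under 0.05 with no fold limit C1qc and Serping1 joined them, so that 4 of 7 were higher and 0 lower, against 15.4% and 8.93% of all tested genes. C3 passed the filter of 1 FPKM in at least 3 samples only through the aged samples, and such a gene had to differ, so these counts and the median below are a description; without C3, 1 of 6 was called higher. With no filter C3 and C4b were again called higher and 0 of the 7 lower, against 0.935% and 0.998% of 25147 genes. Every 18-month sample lay above every 3-week sample for 4 of the 7 genes and below it for 0, orderings found in 20.9% and 12.2% of all tested genes. The median log2 fold change of the 7 was 0.49, and that of all tested genes was 0.089.

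**Figure D1:**
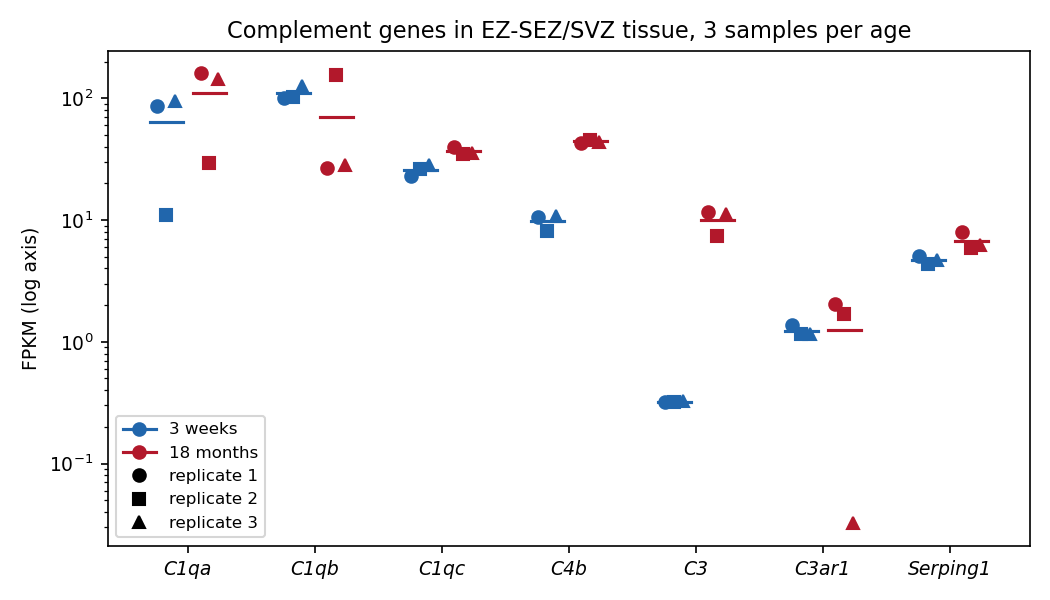
FPKM on a log axis of the 7 complement genes with tissue values, in 3 samples at 3 weeks (blue) and 3 at 18 months (red), with marker shapes for replicates and bars for means. The ages are far apart for C3 and C4b, C1qc and Serping1 are separated by less, and C1qa, C1qb and C3ar1 overlap.

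C3, the central protein on which all activation routes converge, had the largest change. C3 lies on the minus strand at chr17:57203970-57228136 (GRCm38). Its level was 11.7, 7.33 and 11.2 FPKM in the 18-month samples and 0.318, 0.321 and 0.325 FPKM in the 3-week samples. All aged samples stood far above all young samples, with a ratio of means of 31.5. On the log2(FPKM + 1) scale the fold change was 3.05. Because only the aged samples took C3 past the filter, its error and p are read from the fit with no filter. There the fold change was 3.05 (SE 0.21, adjusted p 0.00696 by limma over 25147 genes). The young level was low, at an estimated 29.9 to 33.9 fragments per sample, and the scale with 1 added understates the change of such a gene.

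C4b encodes the C4 protein of mice, which is cleaved by activated C1 and joins the enzyme that cleaves C3. It lies on the minus strand at chr17:34728380-34743882. C4b was at 43.0, 45.7 and 44.1 FPKM at 18 months and at 10.6, 8.1 and 10.7 FPKM at 3 weeks. The aged samples lay close together and well above the young ones, 4.52 times higher on average. The log2 fold change was 2.08 (SE 0.13, 95% interval 1.75 to 2.41), with an adjusted p of 0.00224 by limma, rank 52 of the tested genes.

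C4a, at chr17:34809092-34823464, is a near-identical copy of C4b, and the counting could have divided reads between them. C4a was at 16.7, 12.5 and 10.1 FPKM at 18 months and at 3.73, 4 and 3.43 FPKM at 3 weeks, so its ages did not overlap either. The 2 genes summed gave 59.6, 58.1 and 54.2 FPKM against 14.3, 12.1 and 14.1 FPKM. Refitted as 1 gene, the sum had a log2 fold change of 2.01 (SE 0.11, adjusted p 0.00144 by limma). The exact two-sided permutation test of the sums gave p = 0.1, the smallest that 3 samples against 3 allow. How much of the change belongs to each copy is therefore uncertain, while their sum was higher in 3 of 3 aged samples.

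RefSeq gave promoter windows for 5 of the 8 genes (C1qb, C1qc, C3, C3ar1 and C5ar1), and those of C3, C1qc and C1qb are printed because C3 changed most and the C1q genes are neighbours. Each holds the 250 bases before the RefSeq start on the minus strand of GRCm38.p6, written 5′ to 3′ along the gene, at chr17:57228137-57228386 for C3, chr4:136892915-136893164 for C1qc and chr4:136886201-136886450 for C1qb. Capitals mark matches, on either strand, to any of 7 motifs: TATAAA, TTCNNNGAA (GAS), TTGCNNAA (C/EBP), TGANTCA (AP-1), GAGGAAGT (PU.1), the ISRE consensus and the NF-κB consensus.
C3: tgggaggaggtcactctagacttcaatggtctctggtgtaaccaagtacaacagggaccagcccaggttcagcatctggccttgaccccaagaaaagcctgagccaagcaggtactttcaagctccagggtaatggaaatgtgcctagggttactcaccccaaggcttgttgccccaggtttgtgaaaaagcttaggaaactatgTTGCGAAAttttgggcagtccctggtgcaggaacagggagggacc
C1qc: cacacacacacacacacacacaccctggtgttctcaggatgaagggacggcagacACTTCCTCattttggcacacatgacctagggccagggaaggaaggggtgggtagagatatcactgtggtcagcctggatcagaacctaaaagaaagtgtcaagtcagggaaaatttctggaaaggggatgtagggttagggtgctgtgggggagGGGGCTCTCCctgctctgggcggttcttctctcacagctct
C1qb: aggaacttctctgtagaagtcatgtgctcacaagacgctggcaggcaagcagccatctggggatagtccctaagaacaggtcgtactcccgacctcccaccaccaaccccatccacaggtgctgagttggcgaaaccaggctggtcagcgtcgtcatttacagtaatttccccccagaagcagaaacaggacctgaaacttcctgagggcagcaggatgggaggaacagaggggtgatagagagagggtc
The C3 window held 1 match, the C/EBP letters from -45 to -38 before the start, which 9.56% of 32851 windows of this length held. The C1qc window held the PU.1 letters, reversed, from -195 to -188 and an NF-κB match from -41 to -32, found in 2.44% and 7.25% of windows. The bases of this window up to chr4:136893065, with the NF-κB match, lie inside the annotated C1qc gene. The windows of C5ar1 and C3ar1 also overlap their annotated genes in part. The C1qb window held none of the 7, and neither did that of C5ar1. In C3ar1 TATAAA stood from -235 to -230 and TGANTCA from -22 to -16, in 12.4% and 6.75% of windows. A match is only a match of letters, and its absence says nothing about a factor.

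None of the C1q genes was called in either direction. They lie side by side on the minus strand of chromosome 4, C1qb at chr4:136880129-136886187, C1qc at chr4:136889804-136893065 and C1qa at chr4:136895917-136898803. C1qa was at 160.4, 29.2 and 143 FPKM at 18 months and at 86.0, 10.9 and 94.4 FPKM at 3 weeks. In each age replicate 2 was far below the other samples, and the ages overlapped. Its log2 fold change of 0.94 (SE 1.04, 95% interval -1.64 to 3.52, adjusted p 0.622 by limma) was smaller than its error. Without 3-week replicate 2 it was -0.037, and without both samples numbered 2 it was 0.74 (unadjusted p 0.00898 by limma), still below the fold limit.

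C1qb, the B chain, was at 26.9, 154 and 28.1 FPKM at 18 months and at 101, 103 and 127 FPKM at 3 weeks. Here replicate 2 was the high sample at 18 months, above all young samples, while the other aged samples lay far below them. The log2 fold change was -1.15 (SE 0.69, 95% interval -2.84 to 0.55, adjusted p 0.366 by limma). It became -1.96, with an unadjusted p of 5.52e-05, when 18-month replicate 2 was left out, so that 1 library decided whether C1qb was called lower.

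C1qc was the even one of the chains, at 39.7, 34.8 and 35.7 FPKM at 18 months and 23.2, 26.4 and 28.3 FPKM at 3 weeks. All aged samples lay above all young samples by a small step. The log2 fold change of 0.49 (SE 0.12, 95% interval 0.19 to 0.78) had an unadjusted p of 0.00714 and an adjusted p of 0.0816 by limma, and it did not reach the fold limit.

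**Figure D2:**
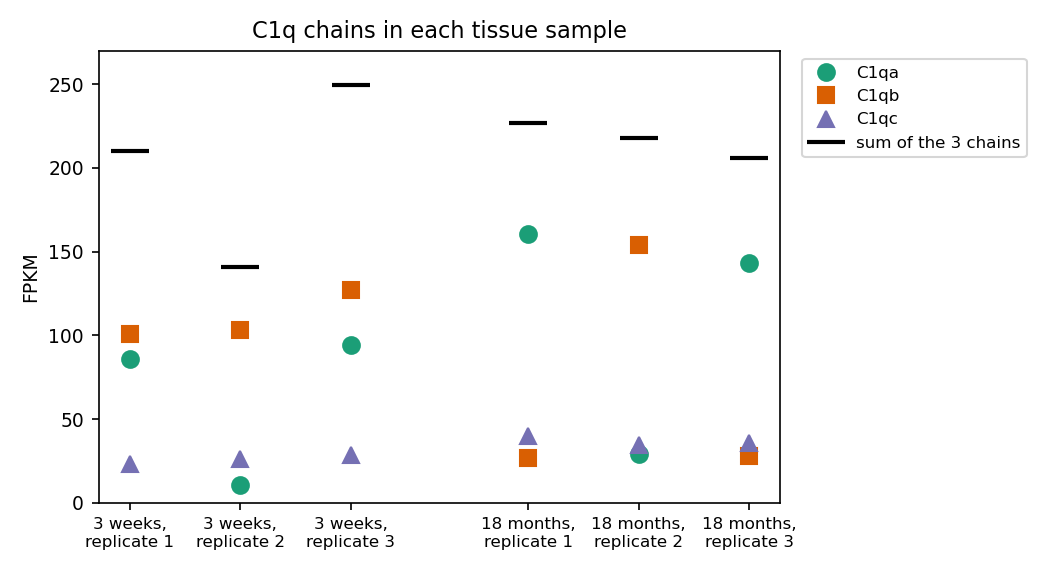
FPKM of C1qa (circles), C1qb (squares), C1qc (triangles) and their sum (bars) in each of the 6 tissue samples. C1qa lies below C1qb in the 3-week samples and in 18-month replicate 2 and above it in the other aged samples, while the sum runs from 141 to 249.6 FPKM and the ages overlap.

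Because the chains are parts of 1 protein, their ratios within a sample were also compared. C1qb to C1qa was 0.168, 5.27 and 0.197 at 18 months and 1.17, 9.46 and 1.34 at 3 weeks, so within each age replicate 2 stood far above the others. The mean log2 ratio was 2.14 lower at 18 months (difference -2.14, exact two-sided permutation p = 0.3). The difference was -1.67 for C1qb to C1qc (exact p = 0.3) and -0.47 for C1qc to C1qa (exact p = 0.5). Over the 6 exact tests of ratios and sums the smallest Benjamini-Hochberg adjusted value was 0.6, in a design whose smallest exact p is 0.1.

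The 3 chains summed gave 227, 218 and 206 FPKM at 18 months and 210.0, 141 and 249.6 FPKM at 3 weeks. The means were 217 ± 10.3 and 200.1 ± 55.2 FPKM (SD, n = 3 per age), and their difference was within the spread of the young samples (exact permutation p = 0.8). In the refit the sum had a log2 fold change of 0.16 (SE 0.22, adjusted p 0.703 by limma). The range between samples of 1 age reached 3.00 on the log2 scale for C1qa and 2.47 for C1qb, against 0.28 at most for C1qc. Of all tested genes 8.42% had a range above 2 in either age, as had 3 of the 17 tested microglia markers.

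C3ar1, the receptor for the C3a fragment, was low in the tissue. It stood at 2.04, 1.70 and 0.0324 FPKM at 18 months and 1.37, 1.15 and 1.15 FPKM at 3 weeks. A single aged sample, replicate 3, was far below every other one, at an estimated 3.1 fragments against 94.7 to 189 elsewhere. The log2 fold change was -0.12 (SE 0.42, 95% interval -1.17 to 0.92, adjusted p 0.887 by limma). It became 0.37 without that sample (unadjusted p 0.038 by limma), -0.72 with a pseudocount of 0.1 and -0.37 with TPM scaling. The data thus gave no direction for the receptor.

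Serping1 encodes the C1 inhibitor, which inactivates the proteases bound to C1q. Its level was 8.04, 5.86 and 6.20 FPKM at 18 months and 5.08, 4.39 and 4.70 FPKM at 3 weeks. The ages were separate but close, at means of 6.70 ± 1.17 and 4.73 ± 0.343 FPKM (SD, n = 3 per age). The log2 fold change was 0.42 (SE 0.15, 95% interval 0.048 to 0.79, unadjusted p 0.033 and adjusted p 0.167 by limma), below the fold limit. The unadjusted p rose above 0.05 with quantile normalization (0.0755) and without 18-month replicate 1 or any one of the 3-week samples (up to 0.0982).

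The other genes of the pathway were read from a list of 56, of which 46 had tissue values and 21 passed the filter of 1 FPKM in at least 3 samples. Called higher at 18 months were 3 (C4a, Itgb2 and Sez6l2) and called lower 0, against the 1.83% and 2.07% of all tested genes. At p under 0.05 with no fold limit 10 of the 21 were higher and 1, Cd93, was lower, against 15.4% and 8.93%. The median of their log2 fold changes was 0.47, against 0.089 over all tested genes. All aged samples lay above all young ones for 13 of the 21 and below them for 1, Cd93, against 20.9% and 12.2% of all tested genes. Itgax, among the 13, and Cd93 each passed the filter only through the age at which they were high, so they had to differ, and these counts and the median include them. The count of 3 depended on single libraries, since it was 1 without 18-month replicate 1 and 5 without either of the other 18-month samples.

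Among initiating components the only gene tested besides those of C1q and C4b was C4a, with a log2 fold change of 1.55 (SE 0.19, adjusted p 0.0165 by limma). C2, C1ra, C1s1, Cfb and Cfp were outside the rule for named genes. They were added, after their values were seen, as textbook partners of the main genes. C2, whose product pairs with C4 to form the enzyme that cleaves C3, was below the filter, at 0.608 to 0.79 FPKM at 18 months and 0.322 to 0.578 FPKM at 3 weeks. The proteases C1ra and C1s1, partners of C1q in the C1 complex, were at 0.34 FPKM or less in every sample. In the alternative pathway Cfb, the factor that pairs with C3b, also stayed under 1 FPKM, at 0.911 to 0.956 against 0.689 to 0.843. Properdin (Cfp), which stabilises the alternative enzyme, had a log2 fold change of -0.13 (SE 0.14). Of the terminal genes that build the membrane attack complex, 6 had values and 0 were tested. Their summed level was 1.39 to 2.17 FPKM at 18 months and 0.862 to 1.34 FPKM at 3 weeks.

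Of 4 tested receptors 1 was called higher and 0 lower. Itgb2, the shared beta chain of complement receptors 3 and 4, was at 9.12, 6.58 and 6.35 FPKM at 18 months and 2.89, 2.96 and 3.51 FPKM at 3 weeks, a log2 fold change of 1.01 (SE 0.17, adjusted p 0.0353 by limma). Itgax, the alpha chain of receptor 4, was at 1.77, 1.22 and 1.17 against 0.135, 0.27 and 0.213 FPKM. Its log2 fold change of 0.98 (SE 0.13) fell just short of the fold limit, and since only its aged samples reached 1 FPKM its p is not read. Itgam, the alpha chain of receptor 3, was at 9.66 FPKM in 18-month replicate 1 and between 3.13 and 3.46 FPKM in the other 5 samples. Cd93, a surface protein first described as a C1q receptor, lay the other way, at 0.639, 0.636 and 0.639 against 2.52, 2.29 and 1.74 FPKM (log2 fold change -0.95, SE 0.13), also just inside the fold limit. Only its young samples reached 1 FPKM, and its p is not read either. Itgax, Itgam and Cd93 are named after their values were seen.

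Of the regulators, 15 were tested, 1 was called higher and 0 were called lower. Sez6l2, a membrane protein with complement control repeats, was at 169, 148 and 127 FPKM at 18 months and 65.4, 64.6 and 78.6 FPKM at 3 weeks, a log2 fold change of 1.08 (SE 0.15, adjusted p 0.0202 by limma). Its relatives Sez6 and Sez6l were not called, with log2 fold changes of 0.47 (SE 0.15) and 0.18 (SE 0.12). Clu, clusterin, which binds terminal complexes in fluid, had by far the highest level of the list, at 1542, 1426 and 1144 FPKM against 1179, 1224 and 1199 FPKM. Its ages overlapped and its log2 fold change was 0.18 (SE 0.13). Vtn, vitronectin, another fluid inhibitor of the terminal complex, had 0.58 (SE 0.12, adjusted p 0.0559), and the membrane regulators Cr1l and Susd4 had -0.17 (SE 0.12) and -0.043 (SE 0.14).

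**Figure D3:**
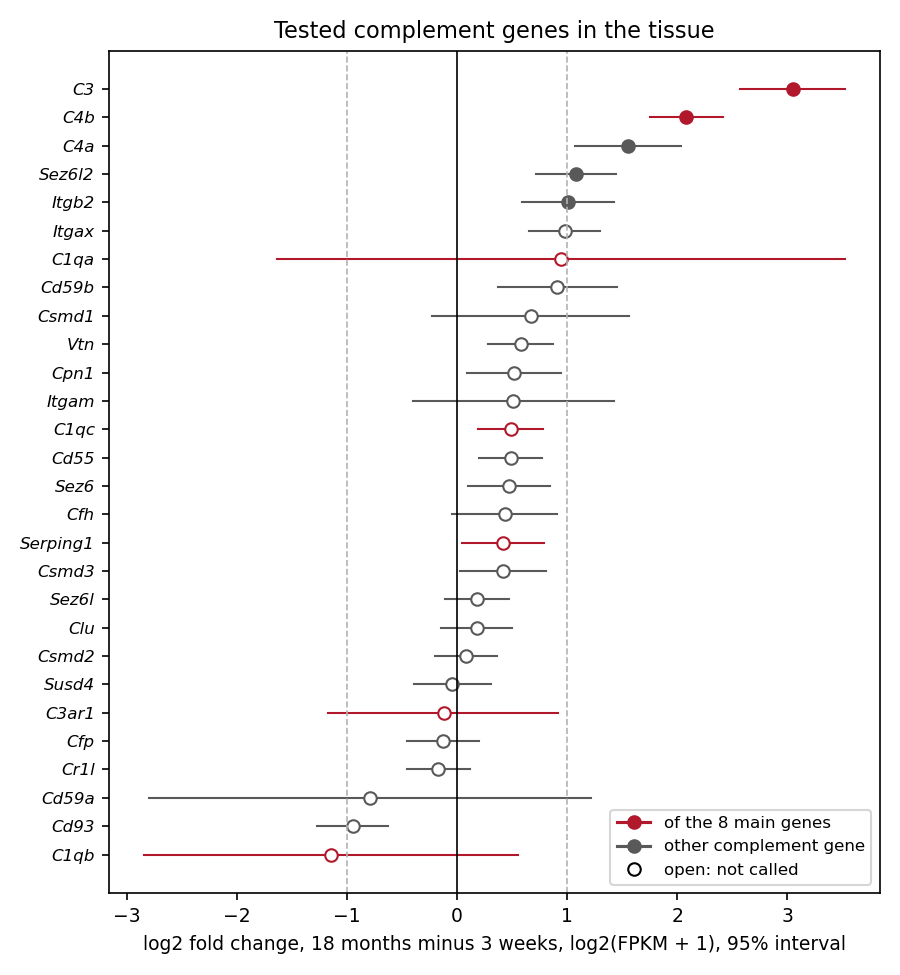
Log2 fold change (18 months minus 3 weeks, on log2(FPKM + 1)) with its 95% interval for the 7 tested main genes (red) and 21 other complement genes (grey). Filled points are called, dashed lines mark the fold limit, and the widest intervals are those of C1qa, Cd59a and C1qb. C3, Itgax and Cd93 passed the filter only through the age at which they were high, so their intervals are not read.

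Bulk tissue mixes cell types, and more cells of a type cannot be told apart from more RNA per cell. The summed level of 17 tested microglia markers was 461 to 590.1 FPKM at 18 months and 399.9 to 465 FPKM at 3 weeks. Only Tyrobp of these was called higher (log2 fold change 1.07, SE 0.30, adjusted p 0.105 by limma), 1 of 17 against 1.83% of all tested genes, and the median of the list was 0.11. All aged samples lay above all young ones for 6 of the 17 and below them for 3, against 20.9% and 12.2% of all tested genes. Ctss, a lysosomal protease, had a log2 fold change of 0.95 (adjusted p 0.0176), and Aif1, which encodes Iba1, had 0.99 (adjusted p 0.0909), both under the fold limit. Tmem119 was at 18.4 to 20 against 23.5 to 24.2 FPKM, and Csf1r at 35.6 to 40.0 against 39.4 to 40.5 FPKM. Selplg was at 37.5 to 57.8 against 60.1 to 68.8 FPKM, and Fcer1g at 44.6 to 73 against 38.2 to 52.6 FPKM. The plan was to name called markers and the 3 most abundant (Ctss, Selplg and Fcer1g), and Aif1, Tmem119 and Csf1r fell outside it. Of the 5 reactive astrocyte genes tested, Serpina3n was called higher (log2 fold change 1.34, SE 0.19, adjusted p 0.0232), and 0 of 8 astrocyte genes were called. Border macrophage markers summed to 1.57 to 2.91 against 2.40 to 2.81 FPKM, with 0 tested.

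Other lists differed between the ages too. Oligodendrocyte markers summed to 3787 to 4492 FPKM at 18 months and 19957 to 22165 FPKM at 3 weeks, with 5 of 8 called lower against 2.07% of all tested genes, and Mbp alone made up 0.349 to 0.563% against 4.73 to 4.99% of all FPKM. Olig2, among the 5, passed the filter only through the young samples, so it had to differ. Olig1 was listed at 0 in all 6 samples, beside these high levels of other oligodendrocyte genes. Neuroblast markers (2 of 7 called lower), blood markers (2 of 5) and meningeal fibroblast markers (1 of 5) were also called lower in part, against the same 2.07%, while 1 of 6 neuron markers was called higher, against 1.83%. Endothelial, ependymal and choroid plexus markers had 0 called. Ependymal Foxj1, at 39.9 to 54.7 FPKM, and neuroblast Dlx2, at 11.1 to 51.1 FPKM, were present in every sample of the labelled region. The part of these lists in the complement differences was not tested.

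**Figure D4:**
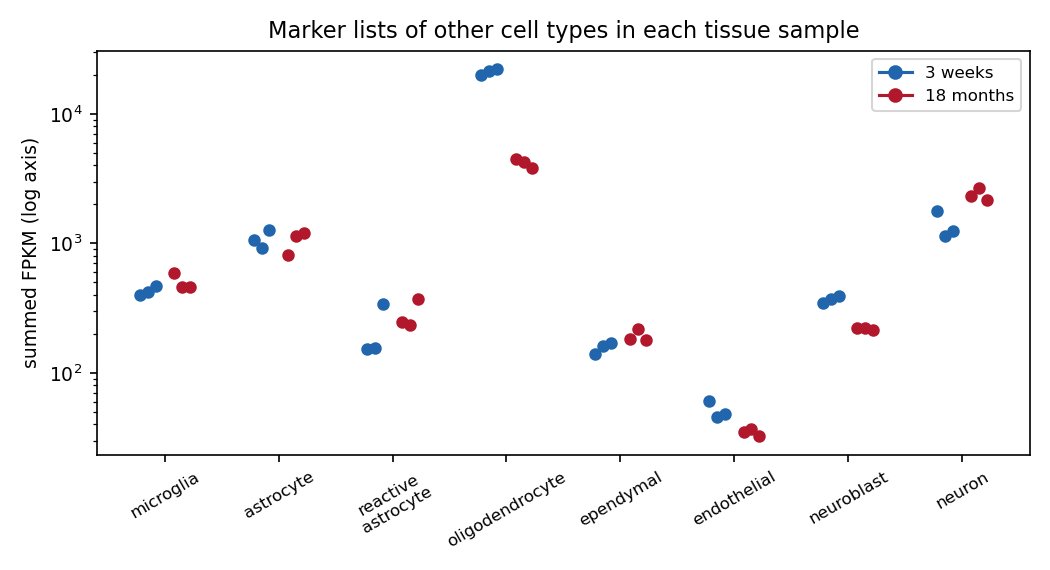
Summed FPKM on a log axis of 8 lists of cell type markers in each tissue sample, 3 at 3 weeks (blue) and 3 at 18 months (red). The oligodendrocyte list is the one with the widest gap between the ages, and the microglia, astrocyte and reactive astrocyte lists overlap.

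Patterns across the 6 tissue samples were compared with those of 2995 variable genes by Pearson's r, as a description only, since the samples share 1 contrast of age. C3 was most like Lypd6b (r = 0.9957), Gm6159 (0.9954), H2-D1 (0.9951), Gm28322 (0.9950) and Gm43555 (0.9946). C4b was most like Cpeb1 (0.9983), Cyb5r1 (0.9970), 1700063D05Rik (0.9959), A330015K06Rik (0.9948) and Hsf4 (0.9942). The 10 genes of these lists had higher means at 18 months, as C3 and C4b did. C1qb was most like Gm26532 (0.9990), Bloc1s4 (0.9955), Tmem60 (0.9939), Pygo1 (0.9924) and A930005G22Rik (0.9897), whose means were lower at 18 months.

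Of the 8 main genes only C4b exceeded 1 FPKM in every cell of a group. No label names the animal of a cell, so each subpopulation at each age stands for 1 sample and no test was made. C4b was at 274, 274, 204, 1492 and 205 FPKM in the Gfap+ cells at 24 months and at 0.408 and 0 FPKM in the Gfap+ cells at 1 month. It was thus above 1 FPKM in 5 of 5 aged cells (exact binomial interval 47.8 to 100%) and in 0 of 2 young cells (0 to 84.2%), intervals that cover counting error only. The mean of log2(FPKM + 1) was 8.42 (SD 1.20 between cells) against 0.25, a difference of 8.18, while the median difference over 11332 expressed genes was 0.16. C4b counted as expressed, above 1 FPKM in at least 3 cells, only through the aged Gfap+ cells. For comparison 2.80% of expressed genes had every aged cell above both young cells, 3.10% had every one below, and 29.6% had a mean higher by more than 1 on this scale.

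Outside the aged Gfap+ cells C4b was at most 1.47 FPKM in 17 cells. Prom1+ cells held 0.272, 0.468 and 0.402 FPKM at 1 month and 0.686, 0 and 1.47 FPKM at 24 months. Dlx2+/Dcx+ cells held 0.0726, 0.0773, 0, 0.64 and 0 FPKM at 1 month and 0, 0.0723, 0.0797 and 0 FPKM at 24 months. The ages overlapped in both of these subpopulations. C4a, the copy, was at 1.93, 18.3 and 14.9 FPKM in aged Gfap+ cells 2, 3 and 4 and was listed at 0 in the other 19 cells, and adding it to C4b moved the difference from 8.18 to 8.21.

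The Gfap+ cells carried Gfap at 48.7 to 194 FPKM, which was at most 0.332 FPKM elsewhere, but their leading markers were those of oligodendrocytes. From 8 to 10 of 10 oligodendrocyte genes were above 1 FPKM in each, with sums of 39742 to 89625 FPKM at both ages, against at most 353 FPKM in any other cell. They expressed 4 to 7 of 10 astrocyte genes above 1 FPKM at 24 months and 2 and 6 at 1 month. The astrocyte sums were 384 to 2719 FPKM at 24 months and 189 and 1052 FPKM at 1 month. Microglia genes above 1 FPKM numbered 1 or 2 of 20 in each of these cells, and border macrophage genes 0 of 7. The microglia sums were 1.68 to 122 FPKM at 24 months and 2.21 and 3.49 FPKM at 1 month. Genes detected above 1 FPKM numbered 4398 and 5491 in the young and 5069 to 6061 in the aged Gfap+ cells, and the part of this difference in the level of C4b was not tested.

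**Figure D5:**
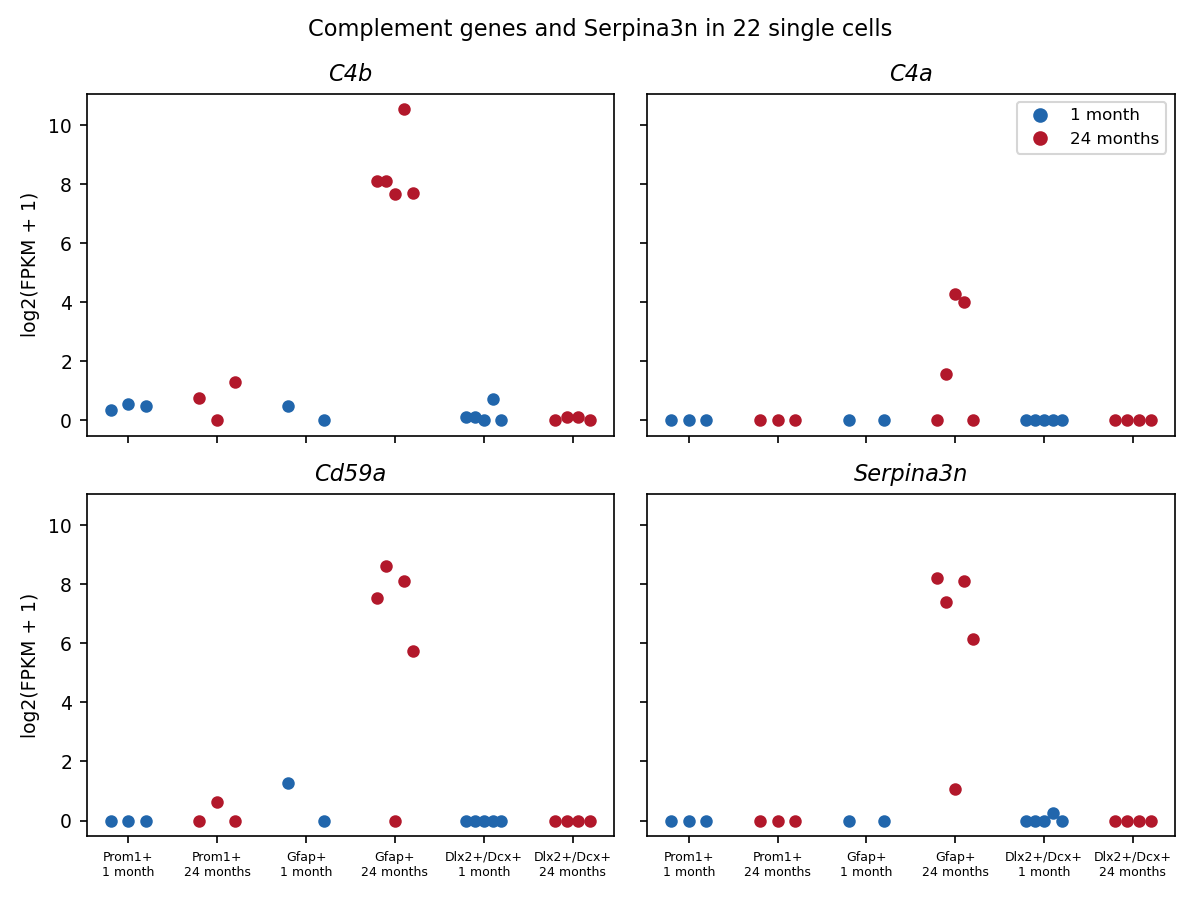
Log2(FPKM + 1) of C4b, its copy C4a, the regulator Cd59a and the protease inhibitor Serpina3n in 22 cells, grouped by subpopulation and age, each point 1 cell. The 5 Gfap+ cells at 24 months stand alone for C4b, and 4 of the same 5 are high for Cd59a and Serpina3n.

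The remaining main genes were nearly absent from the cells. C1qa, C1qb, C3 and C5ar1 were listed at 0 in all 22 cells. C1qc was at 106 FPKM in 1 Dlx2+/Dcx+ cell at 24 months (replicate 4) and listed at 0 in the others. That cell had 1 of 20 microglia genes above 1 FPKM, with a sum of 2.24 FPKM, and listed C1qa and C1qb at 0. Serping1 was at 3.37 FPKM in 1 Prom1+ cell at 1 month (replicate 3) and listed at 0 elsewhere, and C3ar1 was above 0 in 5 cells, at 0.302 FPKM or less.

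Of the other complement genes 55 had values in the cells, 17 exceeded 1 FPKM in at least 1 cell and 27 were listed at 0 in all 22. Cd59a, Cd59b and Cfp are described after their values were seen. Cd59a, a membrane inhibitor of the terminal complex, was at 186, 398, 0, 278 and 52.2 FPKM in aged Gfap+ cells and 1.42 and 0 FPKM in young ones. In the tissue Cd59a was at 1.43, 1.32 and 4.65 FPKM at 18 months and 9.52, 0.631 and 8.56 FPKM at 3 weeks, with overlapping ages. Serpina3n, a protease inhibitor outside the complement list, was at 298, 169, 1.09, 277 and 70.2 FPKM against 0 and 0 FPKM. Aged Gfap+ cell 3 was thus low for both and still held C4b at 204 FPKM.

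Sez6l2 marked the Gfap+ cells at both ages, at 427 and 1158 FPKM at 1 month and 398 to 2163 FPKM at 24 months, against at most 1.11 FPKM elsewhere. Its age groups overlapped in these cells. Cd59b, the copy of Cd59a, was at 32.4, 16.0 and 23.4 FPKM in Prom1+ cells at 24 months and listed at 0 in the 3 at 1 month. In Dlx2+/Dcx+ cells it lay the other way with overlapping ages, at 15, 0, 11.3, 8.16 and 0 FPKM at 1 month and listed at 0 in all 4 at 24 months. How many of all genes differ in this way within Prom1+ or Dlx2+/Dcx+ cells was not counted. In Gfap+ cells Cd59b was at 40.5, 0, 1.16, 0 and 0 FPKM at 24 months and listed at 0 in both at 1 month. Cfp was at 170.4 and 88.3 FPKM in 2 Dlx2+/Dcx+ cells at 1 month and at 0.5 FPKM or less in all other cells. Clu, the most abundant complement gene of the tissue, exceeded 1 FPKM in 8 of the 22 cells and reached 89.2 FPKM. Itgb2 and Itgax, receptor chains at 1.17 to 9.12 FPKM in the aged tissue, were listed at 0 in every cell.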

How the data were processed

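RNA was sequenced from 6 tissue samples and 22 single cells. The authors deposited FPKM values for both, aligned to GRCm38 with HISAT2 and estimated with StringTie per the methods; the submitters' processing notes also name featureCounts. Versions and any scaling between samples are not given in the sources used here, and the labels give the tissue the same protocol as the sorted cells. Samples were grouped by the labels, and no label says that samples came from separate animals, so p-values measure only the spread between these samples.

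Genes with at least 1 FPKM in at least 3 of 6 tissue samples were tested with limma 3.58.1 (lmFit, then eBayes with trend; R 4.3.3). The model held only age, the values were log2(FPKM + 1), and Benjamini-Hochberg adjustment ran over all 12287 genes. Ratios and sums were compared by two-sided exact permutation over samples. The fit was tested on simulated data. Values in cells, with exact binomial intervals, were computed in Python 3.11.15 (pandas 2.3.3, scipy 1.17.1, numpy 2.4.6) and plotted with matplotlib 3.10.9. Expressed genes in cells exceeded 1 FPKM in at least 3 cells. GENCODE symbols were matched for 99.2% of tissue and 86.7% of cell identifiers. Tissue depth, estimated from the worth of 1 fragment, was 18300000 to 22200000 fragments, an estimate under which 51.4 to 53.6% of low values came within 0.05 of a whole fragment, and low FPKM are correspondingly coarse.

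The members and lists were chosen with earlier results of these data known. Named were all 8 members, the called genes among the other complement genes and the 6 most abundant not called. Also named were marker genes where they bear on a result, and the 5 genes most like C1qb, C3 and C4b among those with an SD of at least 0.5. C2, C1ra, C1s1, Cfb, Cfp, Itgax, Itgam, Cd93, Cd59a, Cd59b and Csmd3 were added after their values were seen. Alternatives were a pseudocount of 0.1, no filter, TPM scaling, quantile normalization, adjusted p, no trend, the replicate block, and leaving out each sample. Summed C1q chains, summed C4a and C4b, and leaving out both samples numbered 2 were added after seeing the data.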

Additional observations from a re-analysis of the deposited data

Results flagged for a closer look

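In groups of 4 or 5 cells, a cell was marked where its gap to the nearest other cell exceeded Dixon's 95% limit. Of 6 combinations of a main gene and a group with a value above 0, 4 were marked. Chance marks about 1 in 20 groups of normally spread values, a rate that does not hold here: a single cell above 0 among cells at 0 is marked whatever its level, as were those for C1qc and C3ar1. C4b at 1492 FPKM in a Gfap+ cell at 24 months lay far above the 204 to 274 FPKM of the other 4. C1qc at 106 FPKM in a Dlx2+/Dcx+ cell at 24 months stood alone against cells listed at 0. C4b at 0.64 FPKM in a Dlx2+/Dcx+ cell at 1 month and C3ar1 at 0.0989 FPKM in a Gfap+ cell at 24 months also stood apart, both below 1 FPKM.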

How the results depend on the processing

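C3 and C4b were called higher in every tissue alternative run. Their log2 fold changes were 2.93 to 3.24 and 1.96 to 2.14 when 1 sample was left out. With a pseudocount of 0.1 they were 4.57 and 2.18, and with TPM scaling 4.05 and 2.19. C3 entered each filtered fit only through its aged samples, and the fit with no filter also called it. The count of main genes called lower was 0, or 1 (C1qb) without 18-month replicate 2 and 1 without both samples numbered 2. The log2 fold change of C1qb ran from -1.96 to -0.72 with 1 sample left out, that of C1qa from -0.037 (without 3-week replicate 2) to 1.72, and that of C3ar1 from -0.41 to 0.37 (without 18-month replicate 3). The difference in log2 ratio of C1qc to C1qa ran from -1.22 to 0.56, the latter without 3-week replicate 2. Over all genes 479 were called, 765 with a pseudocount of 0.1, 279 with adjusted p and 458 to 621 with 1 sample left out. Other complement genes called higher numbered 3, or 5 with a pseudocount of 0.1 or TPM scaling and 1 to 5 with 1 sample left out; called lower were 0, or 1 with a pseudocount of 0.1, TPM scaling, quantile normalization or without both samples numbered 2, and 0 to 1 with 1 sample left out. The cause was not tested.

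With the replicate block 505 genes were called, and the main genes kept 2 called higher and 0 lower; the unadjusted p of C1qa went from 0.404 to 0.00866 at an unchanged log2 fold change of 0.94, and that of Serping1 from 0.033 to 0.0592. Same-numbered samples of the ages did not deviate together (r = -0.0963, -0.0107 and -0.098). No sample correlated best with the sample of its own number, so the numbers were not taken as pairs.

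Cells with C4b above the limit numbered 6 at 1 FPKM and 12 at 0.1 FPKM, and the difference between aged and young Gfap+ cells was 10.57 with a pseudocount of 0.1 and 7.65 to 8.42 with 1 cell left out. With 3 samples per age and few cells per group, small differences in low genes such as C3ar1 could not be resolved.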
